A study of Mus musculus with 12 samples.

Results

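Aminoacyl-tRNA synthetases join each amino acid to its tRNA, the step that loads tRNA for protein synthesis. Most amino acids have 2 nuclear genes for this: one for the enzyme of the cytosol and one, usually with a name ending in 2, for the enzyme imported into mitochondria. The 36 genes described here are 20 cytosolic and 16 mitochondrial synthetases, chosen by name from 49671 genes in the deposited counts. All 36 were among the 17977 genes with enough counts to be tested. Gars and Kars, listed as cytosolic, each encode both the cytosolic and the mitochondrial enzyme, and Eprs encodes a single protein that charges glutamate and proline tRNAs. Mitochondria have no enzyme of their own for glutamine tRNA. There, Ears2 charges that tRNA with glutamate, and an amidotransferase made from Gatb, Gatc and Qrsl1 converts it.

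RNA came from regulatory T cells (Tregs), CD4 T cells that restrain immune responses under the transcription factor Foxp3, of C57BL/6 mice aged 8 weeks. The 4 groups of 3 libraries were Gclc mutant nTregs, WT nTregs, Gclc mutant iTregs and WT iTregs. nTregs were sorted from the animal, and iTregs were made in culture from naive CD4+ T cells. Gclc encodes the catalytic subunit of the enzyme that limits glutathione synthesis. The labels used here give the mutant only as a Gclc mutant, with neither the removed exons nor a Cre driver, and do not state whether each library had its own animal or culture. P-values therefore measure the spread between these libraries, which may be technical.

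The library totals lay between 28707579 and 39886130 counts. Gclc was at 45.8, 41.7 and 43.2 CPM (its count relative to the TMM-adjusted total of the library) in mutant nTregs, against 78.7, 79.0 and 70.8 CPM in WT nTregs. Mutant iTregs had 18.8, 21.0 and 19.0 CPM of it, against 56.5, 53.2 and 51.9 CPM in WT iTregs, so the groups did not overlap in either kind of cell. Foxp3 was present in every library, at 135 to 217 CPM in mutant nTregs against 559 to 610 CPM in WT nTregs, and at 75.5 to 107 CPM in mutant iTregs against 287 to 300 CPM in WT iTregs. Over 7 Treg markers that include Foxp3, the median log2 fold change of mutant against WT was -0.17 in nTregs (range -1.7 to 0.09). In iTregs it was 0.13 (range -1.66 to 0.39). Mutant nTreg library 1 stood apart from the rest in markers of CD8 T and NK cells. The summed level of 10 CD8 T and NK cell markers was 1492 CPM there and 192 and 162 CPM in the other mutant nTreg libraries, against 62.9 to 71.7 CPM in WT nTregs. Summed B cell markers were at 180 to 391 CPM in mutant nTregs and 272 to 428 CPM in WT nTregs, and at no more than 3.68 CPM in any iTreg library. Summed erythroid markers were at 520, 883 and 178 CPM in mutant nTregs, against 389, 148 and 111 CPM in WT nTregs. They were at no more than 0.108 CPM in any iTreg library. Among mutant nTregs the B cell and erythroid sums were highest in library 2. In these bulk libraries a different mixture of cells and a different amount of RNA per cell cannot be told apart.

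The cytosolic synthetases were the more abundant set. On a per-length scale (TPM, from the union of annotated exons), their median level over the 12 libraries was 37.0 TPM, with a range of 8.84 for Cars to 88.1 for Nars. The mitochondrial median was 5.76 TPM, with a range of 2.93 for Nars2 to 63.6 for Lars2. Lars2 was the only mitochondrial gene among the 17 highest of the 36, and the next was Tars2 at 18.2 TPM. Nars at 88.1 and Gars at 72.3 TPM led the cytosolic set, followed by Hars at 56.9 and Kars at 49.4 TPM. At the low end of the mitochondrial set, Ears2 at 3.33, Wars2 at 3.31 and Nars2 at 2.93 TPM stood within a narrow range. Exon unions include rarely used exons, so long unions such as those of Eprs (18102 bases) and Aars (9282 bases) lower the TPM of these genes.

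The Lars2 value is uncertain. Lars2, for the mitochondrial leucine enzyme (chr9:123366927-123462666), was at 625, 527 and 644 CPM in mutant nTregs, against 141, 473 and 514 CPM in WT nTregs. It was at 591, 342 and 405 CPM in mutant iTregs, against 151, 293 and 418 CPM in WT iTregs. No other member varied as widely within groups, and neither mutant effect passed the test (log2 fold change 0.67 ± 0.42 in nTregs and 0.63 ± 0.42 in iTregs, SE, edgeR adjusted p = 0.231 and 0.289). Its count was 2.75 to 3.31 times that of Gm15564, a gene on chromosome 16, in all 12 libraries, while both counts varied several-fold between libraries. Reads aligning to several places were counted at each, so counts of the 2 genes may share reads. Values of the mitochondrial set are given below without Lars2 where a sum is taken.

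**Figure D1:**
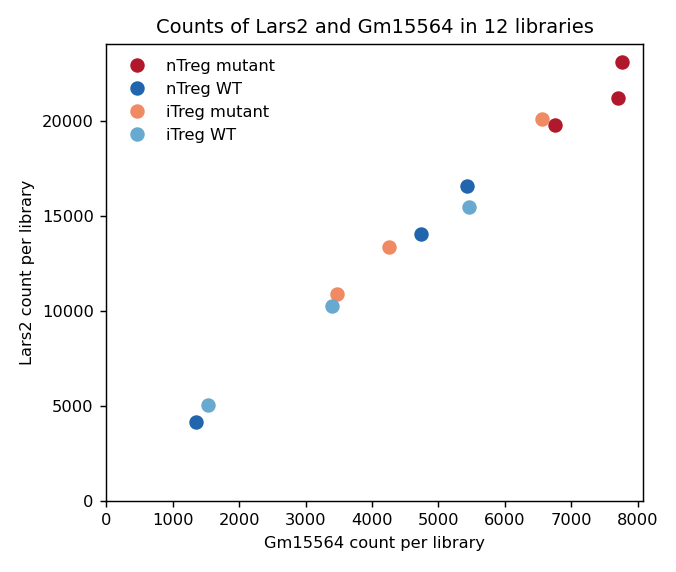
Count of Lars2 (y axis) against count of Gm15564 (x axis) in each of the 12 libraries, with 1 point per library and colour for the group. The points lie close to a line through the origin, with ratios of 2.75 to 3.31, and points of all 4 groups lie along it.

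The first comparison asks how the Gclc mutation goes with synthetase transcripts in Tregs taken from the animal. In mutant nTregs, 16 of 20 cytosolic synthetases rose and none fell, with a median log2 fold change of 0.36 (range 0.02 to 0.79). Of the 16 mitochondrial synthetases, Sars2 rose, Ears2, Tars2, Mars2 and Hars2 fell, and 11 did not pass the test; their median was 0.07, and 0.05 without Lars2. Over all genes tested, 34.9% passed in this comparison (19.3% higher and 15.6% lower), and the median was 0.04. The mitochondrial count, with 11 of 16 not passing, is near that share. Calls use edgeR's quasi-likelihood test at a Benjamini-Hochberg adjusted p below 0.05. For 16 cytosolic members every mutant library lay above every WT library, which held for 25.7% of all genes tested. For 7 mitochondrial members every mutant library lay above, and for 5 every one lay below, which held for 22.6% of all genes tested.

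Aars, for alanine (ENSMUSG00000031960, chr8:111033144-111057664, plus strand), was at 119, 87.4 and 88.0 CPM in mutant nTregs, against 59.5, 59.2 and 57.5 CPM in WT nTregs. All mutant libraries lay above all WT libraries, and the log2 fold change was 0.74 ± 0.11 (SE of the fit with 3 libraries a group, edgeR adjusted p = 0.000631). Its exons share 1326 bases with Exosc6 on the same strand, a gene with 3663 counts over the 12 libraries beside 40082 for Aars. Gars, for glycine (ENSMUSG00000029777, chr6:55038007-55079500, plus strand), was at 179, 106 and 113 CPM in mutant nTregs, against 79.6, 76.6 and 73.6 CPM in WT nTregs. Its log2 fold change of 0.79 ± 0.15 was the highest of the 36 genes (edgeR adjusted p = 0.00189), and mutant library 1 was the highest.

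Wars, for tryptophan (ENSMUSG00000021266, chr12:108860030-108894174, minus strand), was at 69.6, 54.6 and 56.9 CPM in mutant nTregs, against 40.8, 41.5 and 43.9 CPM in WT nTregs. Again no library of one group reached the other (log2 fold change 0.52 ± 0.09, edgeR adjusted p = 0.00102). Kars, for lysine (ENSMUSG00000031948, chr8:111993443-112011323, minus strand), was at 174, 117 and 123 CPM in mutant nTregs, against 101, 90.1 and 90.8 CPM in WT nTregs. Its log2 fold change was 0.56 ± 0.12 (edgeR adjusted p = 0.00419). The other 12 that passed were Yars, Rars, Mars1, Hars, Vars, Cars, Lars, Tars, Nars, Eprs, Sars and Iars, with log2 fold changes of 0.31 to 0.47. They charge tyrosine, arginine, methionine, histidine, valine, cysteine, leucine, threonine, asparagine, glutamate with proline, serine and isoleucine tRNAs.

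Farsa and Farsb, the 2 subunits of the cytosolic phenylalanine enzyme, were among the 4 that did not pass, at 0.02 ± 0.10 and 0.27 ± 0.10 (edgeR adjusted p = 0.894 and 0.0544). Dars, for aspartate, was at 0.21 ± 0.09 and Qars, for glutamine, at 0.08 ± 0.07 (edgeR adjusted p = 0.0965 and 0.415). Dars and Qars belong to the multi-synthetase complex, a cytosolic assembly of several synthetases. Of its 8 synthetases 6 rose, with a median of 0.34, and of the 12 cytosolic members outside it 10 rose, with a median of 0.39. By structural class, 8 of 9 class I and 7 of 10 class II enzymes rose, with medians of 0.41 and 0.34. Eprs, which charges both glutamate and proline tRNAs, was counted in neither class.

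All 20 cytosolic members had their highest mutant nTreg value in library 1, as did 9 of the 10 CD8 T and NK cell markers and 8 of the 16 mitochondrial members. None of these 10 markers was at 0 in an nTreg library; Cd8a was at 219, 19.1 and 27.2 CPM in mutant nTregs, against 3.70, 4.38 and 6.36 CPM in WT nTregs. Without library 1 the values of the cytosolic set were smaller: 15 of 20 passed, Cars did not (log2 fold change 0.26 ± 0.11, edgeR adjusted p = 0.103), and the median was 0.26. Without it Gars was at 0.55 ± 0.05, Aars at 0.61 ± 0.08, Kars at 0.39 ± 0.06 and Wars at 0.44 ± 0.06, and all 4 passed. The summed markers were above WT in the other mutant libraries too, and their part in these values was not tested. Leaving out WT nTreg library 3 left 10 cytosolic members that passed.

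**Figure D2:**
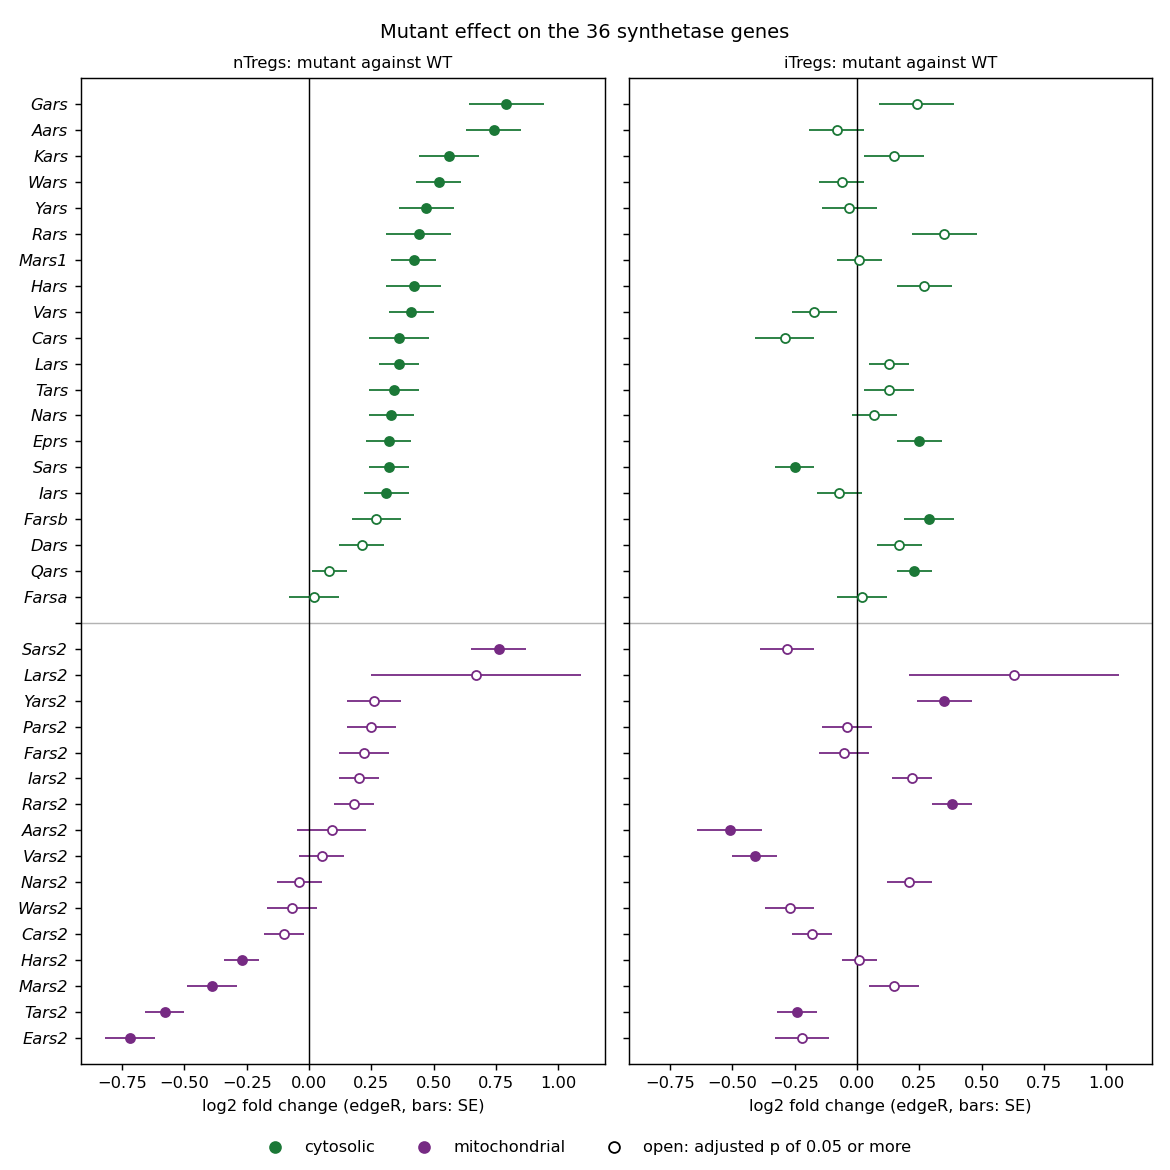
Log2 fold change of each synthetase gene, mutant against WT, in nTregs (left) and iTregs (right), with bars for the SE of the edgeR fit; filled points passed at an adjusted p below 0.05. In nTregs the 20 cytosolic genes lie between 0.02 and 0.79, and the 16 mitochondrial genes spread from -0.72 to 0.76.

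Among the mitochondrial members Ears2 and Tars2 had the smallest adjusted p-values. Ears2, for mitochondrial glutamate (ENSMUSG00000030871, chr7:122037213-122067263, minus strand), was at 9.92, 9.70 and 11.1 CPM in mutant nTregs, against 18.7, 15.4 and 16.7 CPM in WT nTregs. Its log2 fold change was -0.72 ± 0.10 (edgeR adjusted p = 0.00044), with no overlap between the groups. Tars2, for mitochondrial threonine (ENSMUSG00000028107, chr3:95739976-95760206, minus strand), was at 68.2, 70.5 and 74.1 CPM in mutant nTregs, against 117, 99.6 and 102 CPM in WT nTregs. It fell by 0.58 ± 0.08 on the log2 scale (edgeR adjusted p = 0.000424). Mars2, for mitochondrial methionine, and Hars2, for mitochondrial histidine, were at -0.39 ± 0.10 and -0.27 ± 0.07 (edgeR adjusted p = 0.0117 and 0.0115). Hars2 and Hars lie head to head on chromosome 18 on opposite strands with 198 shared bases in their gene spans, and strand was used in counting.

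Sars2, for mitochondrial serine (ENSMUSG00000070699, chr7:28741992-28753871, plus strand), went the other way. It was at 8.60, 7.51 and 8.00 CPM in mutant nTregs, against 4.34, 4.82 and 5.02 CPM in WT nTregs, a log2 fold change of 0.76 ± 0.11 (edgeR adjusted p = 0.000474). Without mutant library 1 these 5 calls held, with Ears2 at -0.67, Tars2 at -0.53, Mars2 at -0.32, Hars2 at -0.29 and Sars2 at 0.74. Scaling by library size alone gave 5 mitochondrial members higher and 4 lower.

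The contrast between the compartments can be read by amino acid, since 16 pairs of a cytosolic and a mitochondrial gene charge the same one. Eprs stands in a pair with Ears2 and in another with Pars2, and Farsa stands for the cytosolic phenylalanine enzyme. The mutant effect was more positive for the cytosolic gene in 13 of 16 pairs in nTregs, with a median difference of 0.36 on the log2 scale. The widest gaps were between Eprs at 0.32 and Ears2 at -0.72, Tars at 0.34 and Tars2 at -0.58, and Mars1 at 0.42 and Mars2 at -0.39. Serine was the reverse, with Sars at 0.32 and Sars2 at 0.76, as was leucine (Lars and the uncertain Lars2). Phenylalanine was the reverse with Farsa at 0.02 beside Fars2 at 0.22, but not with the other cytosolic subunit, Farsb, at 0.27.

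Summed over the 20 cytosolic genes, the level was 2224, 1693 and 1728 CPM in mutant nTregs, against 1469, 1442 and 1420 CPM in WT nTregs. Every mutant library lay above every WT library. Summed over the 15 mitochondrial genes without Lars2 it was 388, 362 and 367 CPM in mutant nTregs, against 420, 401 and 415 CPM in WT nTregs, so here every mutant library lay below. Iars2, Tars2, Hars2 and Mars2 are the most abundant genes by CPM in the mitochondrial sum. The mean of Tars2 was 70.9 CPM in mutant and 106 CPM in WT nTregs, beside 372 and 412 CPM for the sum. Most of the gap in the sum is thus that of Tars2, and the sum does not describe the whole set. Gene by gene, 8 of the 15 had a log2 fold change above 0, with a median of 0.05.

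**Figure D3:**
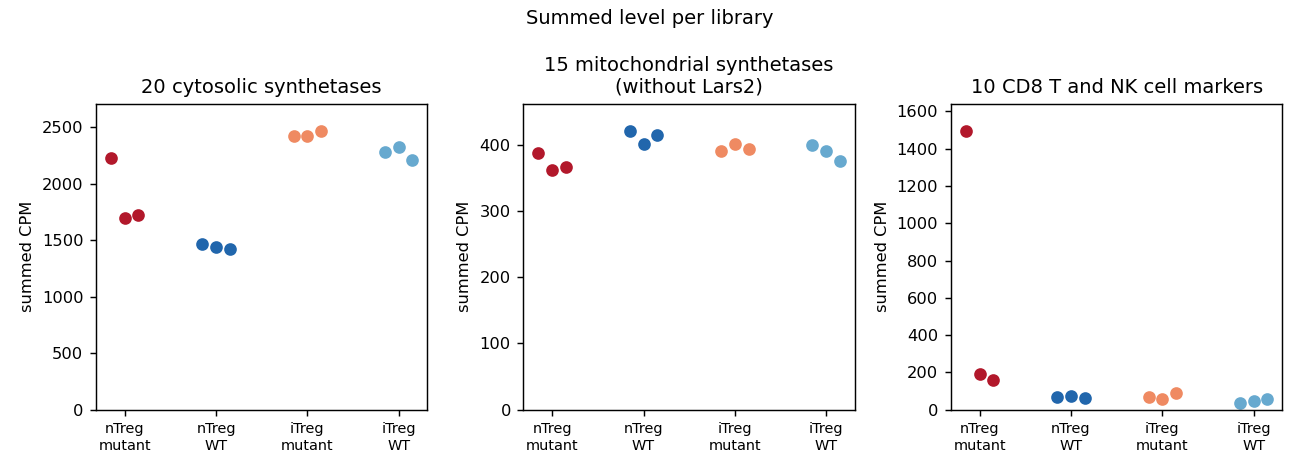
Summed CPM per library for the cytosolic synthetases, the mitochondrial synthetases without Lars2 and the CD8 T and NK cell markers, with 1 point per library in library order. Mutant nTreg library 1 is the highest nTreg point of the cytosolic panel, at 2224 CPM, and of the marker panel, at 1492 CPM.

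The second comparison makes the same contrast in Tregs induced in culture. Fewer cytosolic synthetases differed there, while the number of mitochondrial ones that passed was the same as in nTregs. Among the cytosolic members Eprs, Farsb and Qars rose and Sars fell, with a median log2 fold change of 0.10, and 16 did not pass. Among the mitochondrial members Rars2 and Yars2 rose, Aars2, Vars2 and Tars2 fell, and 11 did not pass, with a median of -0.04. Over all genes tested 25.4% passed (14.0% higher and 11.4% lower), so the cytosolic count of 4 of 20 is near that background. The mitochondrial count, with 11 of 16 not passing, is near it too. Every mutant library lay above every WT library for 9 cytosolic and 4 mitochondrial members, against 26.8% of all genes, and below for 2 and 6, against 19.7%.

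Qars was at 181, 169 and 170 CPM in mutant iTregs, against 145, 140 and 158 CPM in WT iTregs (log2 fold change 0.23 ± 0.07, edgeR adjusted p = 0.0294). Sars, for cytosolic serine (ENSMUSG00000068739, chr3:108424865-108445209, minus strand), was at 98.0, 93.8 and 101 CPM in mutant iTregs, against 121, 121 and 107 CPM in WT iTregs (-0.25 ± 0.08, edgeR adjusted p = 0.0361). Both kept their groups apart by a narrow margin. Eprs at 0.25 ± 0.09 and Farsb at 0.29 ± 0.10 passed by little (edgeR adjusted p = 0.0482 and 0.0491). The number of cytosolic members higher was 0 with iTreg mutant library 1 or 2, or iTreg WT library 1 or 2, left out, and 0 with scaling by library size alone, which gave 3 lower.

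Rars2, for mitochondrial arginine, was at 47.0, 45.3 and 39.5 CPM in mutant iTregs, against 32.4, 32.2 and 36.6 CPM in WT iTregs (log2 fold change 0.38 ± 0.08, edgeR adjusted p = 0.00729). Vars2, for mitochondrial valine, was at 15.4, 14.8 and 17.1 CPM in mutant iTregs, against 22.0, 20.9 and 19.8 CPM in WT iTregs (-0.41 ± 0.09, edgeR adjusted p = 0.00776). Both had no overlap between the groups. Aars2, for mitochondrial alanine, was at 7.53, 7.88 and 9.71 CPM in mutant iTregs, against 12.7, 11.2 and 11.9 CPM in WT iTregs (-0.51 ± 0.13, edgeR adjusted p = 0.0154). Yars2, for mitochondrial tyrosine, was at 0.35 ± 0.11 and Tars2 at -0.24 ± 0.08 (edgeR adjusted p = 0.0296 and 0.0436). Scaling by library size alone gave 1 mitochondrial member higher and 6 lower here. Without mutant iTreg library 1 or 2, or WT iTreg library 1, 1 mitochondrial member was lower, and without mutant nTreg library 1, 5 were.

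By amino acid, the cytosolic gene had the more positive mutant effect in 9 of 16 pairs in iTregs, with a median difference of 0.05. The cytosolic sum was 2424, 2425 and 2463 CPM in mutant iTregs, against 2284, 2328 and 2211 CPM in WT iTregs. The mitochondrial sum without Lars2 was 391 to 401 CPM in mutant iTregs and 375 to 399 CPM in WT iTregs, which overlap.

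**Figure D4:**
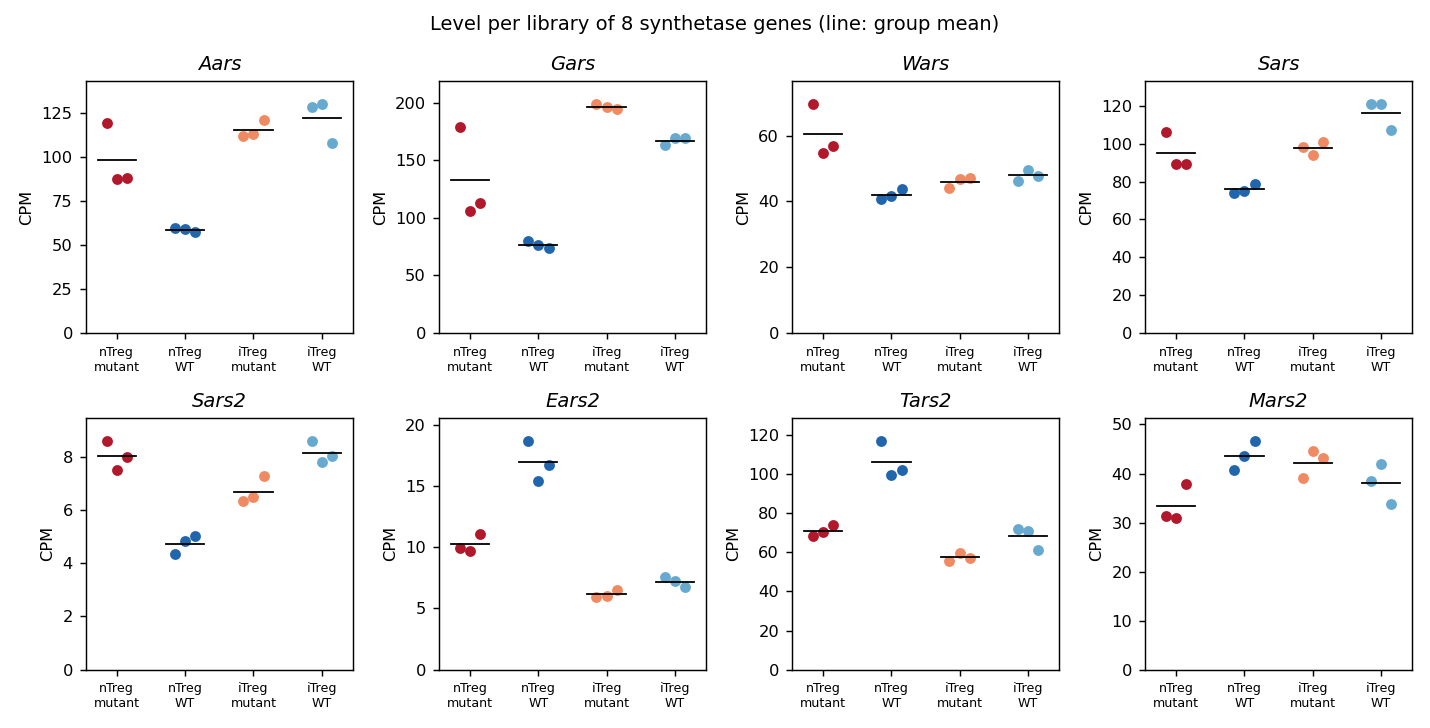
CPM of 8 synthetase genes in each library, with a line at the mean of each group of 3. Aars, Gars, Wars and Sars lie higher in mutant than in WT nTregs, as does Sars2, while Ears2, Tars2 and Mars2 lie lower.

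Whether the mutant effect differed between the 2 kinds of cell was tested directly, as the nTreg effect minus the iTreg effect. Of the cytosolic members 5 had a more positive effect in nTregs and none a more negative one. Of the mitochondrial members 2 were more positive and 2 more negative. Over all genes tested 13.3% passed this test (7.18% positive and 6.12% negative). Aars differed by 0.82 ± 0.16 (0.74 in nTregs and -0.08 in iTregs, edgeR adjusted p = 0.00767), and Sars by 0.57 ± 0.11 (0.32 and -0.25, edgeR adjusted p = 0.00846). Wars differed by 0.58 ± 0.12, Vars by 0.59 ± 0.13 and Cars by 0.65 ± 0.17 (edgeR adjusted p = 0.011, 0.0119 and 0.0267).

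Sars2 had the most positive difference of the 36 genes, 1.04 ± 0.15 (0.76 in nTregs and -0.28 in iTregs, edgeR adjusted p = 0.00313), and Vars2 differed by 0.46 ± 0.13 (edgeR adjusted p = 0.0346). Mars2 and Ears2 were more negative in nTregs, by -0.54 ± 0.14 and -0.51 ± 0.15 (edgeR adjusted p = 0.0303 and 0.0398). Without mutant nTreg library 1 the cytosolic count was 10 and Gars was among them, at 0.36 ± 0.07 beside 0.56 ± 0.21 with it (edgeR adjusted p = 0.00695 and 0.0908). The cytosolic median was then 0.24, beside 0.32 with library 1. The share of all genes that passed in that fit is not given here, so the larger count has no background beside it. Iars, Kars and Mars1, of the multi-synthetase complex, and Yars also passed without library 1. Neither Mars2 nor Ears2 passed without library 1 (edgeR adjusted p = 0.0659 and 0.078). Without mutant nTreg library 2 the cytosolic count was 8.

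The next comparison sets the 2 kinds of cell side by side. In WT iTregs against WT nTregs, 16 of 20 cytosolic synthetases rose and none fell, with a median log2 fold change of 0.64. Of the mitochondrial synthetases 7 rose and 3 fell, with a median of 0.12. Over all genes tested 69.5% passed (33.7% higher and 35.7% lower) with a median of -0.02, so a call alone says little here and the direction and size carry the contrast. Every WT iTreg library lay above every WT nTreg library for 18 cytosolic and 8 mitochondrial members, against 37.9% of all genes, and below for 0 and 3, against 39.9%.

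Iars, for isoleucine, was at 183, 186 and 156 CPM in WT iTregs, against 84.3, 85.6 and 77.9 CPM in WT nTregs (log2 fold change 1.08 ± 0.09, edgeR adjusted p = 3.2e-07). Mars1, for methionine, was at 97.3, 102 and 89.6 CPM in WT iTregs, against 48.9, 46.4 and 43.2 CPM in WT nTregs (1.06 ± 0.09, edgeR adjusted p = 6.21e-07). The level of both in every WT iTreg library was above that in every WT nTreg library. Gars, Aars, Cars, Yars and Eprs also rose by 0.89 to 1.13. Wars at 0.19 ± 0.09, Vars at 0.20 ± 0.09, Dars at 0.04 ± 0.09 and Farsa at -0.08 ± 0.10 did not pass (edgeR adjusted p = 0.0696, 0.0558, 0.737 and 0.519).

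Ears2 had the lowest log2 fold change of this contrast among the 36 synthetases, -1.24 ± 0.10 (edgeR adjusted p = 4.39e-07). It was at 7.54, 7.21 and 6.73 CPM in WT iTregs, against 18.7, 15.4 and 16.7 CPM in WT nTregs. Tars2 fell by 0.64 ± 0.08 on the log2 scale (edgeR adjusted p = 1.5e-05), and Hars2 fell by 0.29 ± 0.07 (edgeR adjusted p = 0.00236). Aars2 at 0.89, Sars2 at 0.78 and Rars2 at 0.67 were the mitochondrial members that rose most. Ears2, Tars2 and Hars2 were thus lower in mutant than in WT nTregs and lower in WT iTregs than in WT nTregs; both comparisons share the WT nTreg libraries.

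The same contrast between mutant groups gave 13 cytosolic members higher and 2 lower, and 5 mitochondrial members higher and 6 lower, where 68.2% of all genes passed (33.2% higher and 35.0% lower). Every mutant iTreg library lay above every mutant nTreg library for 12 cytosolic and 6 mitochondrial members, against 33.6% of all genes, and below for 2 and 6, against 35.2%. The 2 cytosolic members lower in mutant iTregs were Vars and Wars, both of which had their highest mutant nTreg value in library 1. Wars was at 44.0, 46.8 and 47.0 CPM in mutant iTregs, against 69.6, 54.6 and 56.9 CPM in mutant nTregs (log2 fold change -0.39 ± 0.09, edgeR adjusted p = 0.00128). Vars was at 108, 107 and 119 CPM in mutant iTregs, against 165, 146 and 125 CPM in mutant nTregs (-0.38 ± 0.09, edgeR adjusted p = 0.00197).

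**Figure D5:**
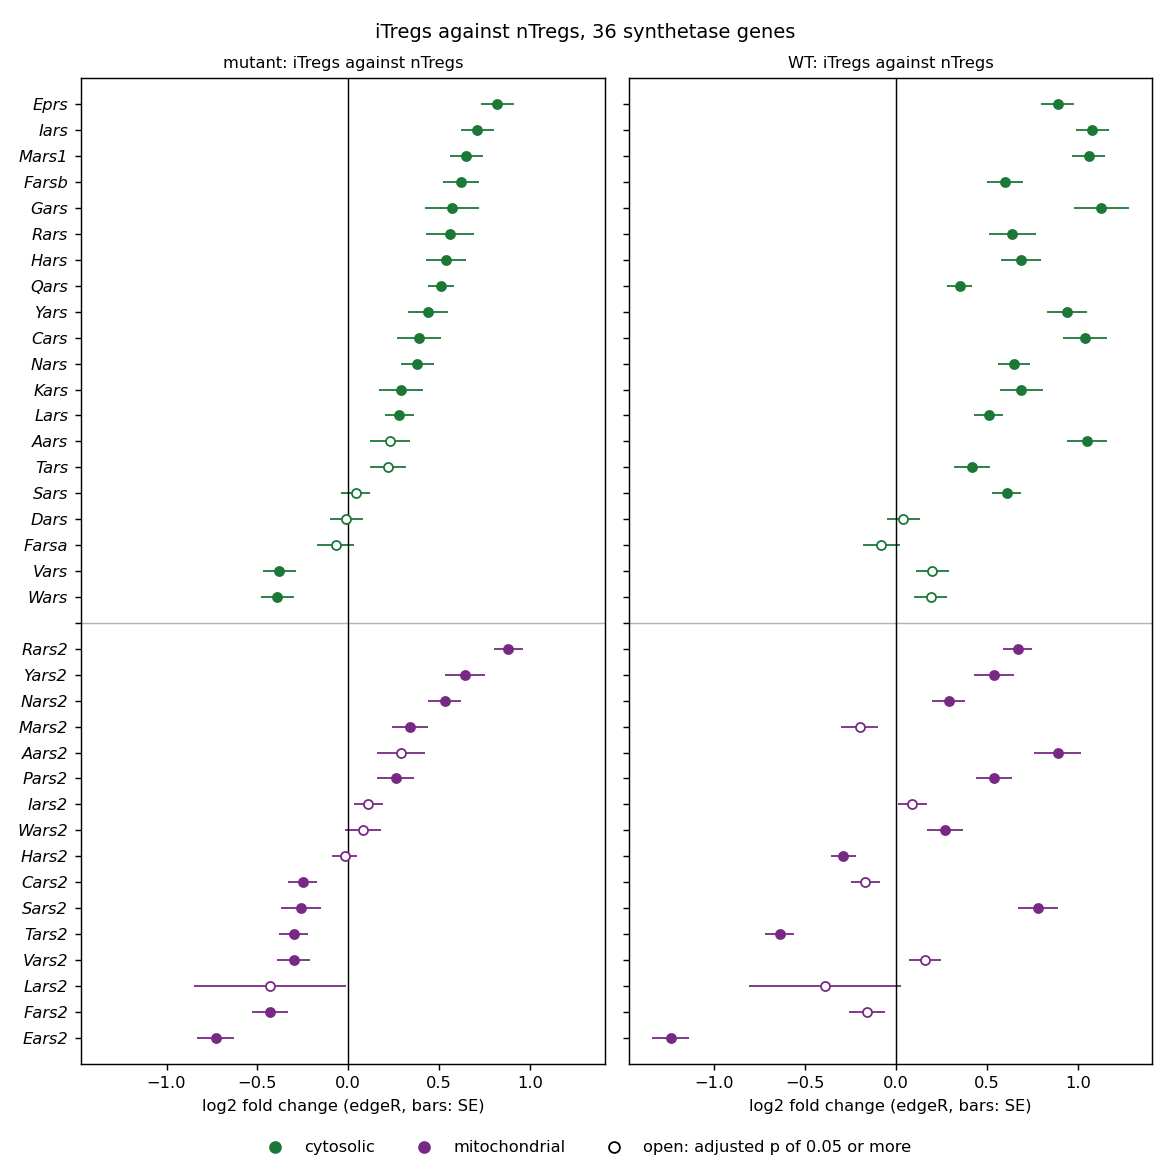
Log2 fold change of each synthetase gene, iTregs against nTregs, in mutant cells (left) and WT cells (right), with bars for the SE of the edgeR fit; filled points passed at an adjusted p below 0.05. In WT cells the cytosolic median is 0.64 and Ears2 is the lowest gene, at -1.24.

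The promoters of some cytosolic members hold a motif through which ATF4, a transcription factor that answers amino acid shortage, is known to act. It is the C/EBP-ATF response element, with core TGATGNAA, searched on both strands from 250 bases before to 50 after the start of each gene (RefSeq, GRCm38.p6). Promoters were matched for 13 of 20 cytosolic and 14 of 16 mitochondrial members. The core was in 5 of the 13 cytosolic promoters and in 0 of the 14 mitochondrial ones, and in 4.51% of 27025 promoters of the table. These 5 genes rose in mutant nTregs, where 16 of all 20 cytosolic members rose, and a link between core and rise was not tested. For each of the 5 genes 1 match is shown with 11 bases on either side. The capitals mark the core or its reverse complement, read along the strand of the gene. A match is a description, not a site of binding, and its absence says only that these letters are not in this window.
Aars (chr8:111033840-111033869, after the start): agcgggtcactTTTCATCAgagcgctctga
Gars (chr6:55037960-55037989, before the start): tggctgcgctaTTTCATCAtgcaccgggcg
Iars (chr13:49682126-49682155, after the start): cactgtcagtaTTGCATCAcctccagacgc
Tars (chr15:11399655-11399684, before the start): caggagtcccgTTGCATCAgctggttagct
Yars (chr4:129189895-129189924, after the start): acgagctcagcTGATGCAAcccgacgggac

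Asns, which makes asparagine and is a known ATF4 target, holds the core too. It was at 21.5, 17.7 and 18.6 CPM in mutant nTregs, against 2.51, 2.69 and 1.61 CPM in WT nTregs. Asns is 1 of 11 genes of the amino acid response, a list that also holds the sensor kinase Eif2ak4 and its partner Gcn1. In mutant nTregs 3 of the 11 rose (Asns, Chac1 and Eif2ak4), where 19.3% of all genes tested rose and 15.6% fell. Chac1 was near the floor, at 0.0948, 0.57 and 0.274 CPM in mutant nTregs, against 0, 0.0674 and 0.062 CPM in WT nTregs. Ddit3 fell, by 0.39 ± 0.13 on the log2 scale (edgeR adjusted p = 0.0352). Without mutant nTreg library 1, 4 of the 11 passed as higher and none as lower, with Ddit3 at -0.31 ± 0.15 (edgeR adjusted p = 0.129). Atf4 itself was at 0.19 ± 0.11 (edgeR adjusted p = 0.213). In mutant iTregs 2 rose and 3 fell, where 14.0% of all genes tested rose and 11.4% fell. Among the 3 was Gcn1, the partner of the sensor kinase Eif2ak4, which fell by 0.49 ± 0.10 (edgeR adjusted p = 0.00514).

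The counts of other genes of tRNA charging and translation that follow are read against the shares of all genes tested, 19.3% higher and 15.6% lower in mutant nTregs and 14.0% higher and 11.4% lower in mutant iTregs. Of the 3 scaffold proteins of the multi-synthetase complex, Aimp1 and Aimp2 rose in mutant nTregs, by 0.31 ± 0.10 and 0.38 ± 0.12 (edgeR adjusted p = 0.0317 and 0.0296), and none passed in iTregs. None of Gatb, Gatc, Qrsl1 and Mtfmt, the mitochondrial glutamine route and formylation of initiator tRNA, passed in either kind of cell. Of 7 editing and accessory genes 3 rose in mutant nTregs. Aarsd1, a relative of the alanine enzyme that removes misplaced amino acids from tRNA, was at 24.6, 20.5 and 18.1 CPM in mutant nTregs, against 11.8, 11.8 and 13.5 CPM in WT nTregs (log2 fold change 0.76 ± 0.11, edgeR adjusted p = 0.000456). In iTregs none of the 7 passed.

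Of 17 genes of tRNA maturation and export, 4 rose in mutant nTregs (Thg1l, Pop1, Pop4 and Nsun2) and 1 in mutant iTregs (Trnt1, which adds the terminal CCA); the nTreg count is near the 19.3% of all genes. Thg1l, which modifies histidine tRNA, rose by 0.71 ± 0.10 in nTregs (edgeR adjusted p = 0.00046). Of 20 genes of RNA polymerase III, which makes tRNA, and of its factors, 2 rose and 4 fell in mutant nTregs, and 2 rose and 2 fell in mutant iTregs, which is near or below the shares of all genes. Maf1, its repressor, was at 47.9, 60.1 and 58.0 CPM in mutant nTregs, against 82.2, 76.8 and 83.7 CPM in WT nTregs (-0.55 ± 0.09, edgeR adjusted p = 0.00109). It also fell in mutant iTregs, by 0.50 ± 0.09 (edgeR adjusted p = 0.00351), and Brf1, an initiation factor, fell in both, by 0.41 ± 0.09 in nTregs and 0.33 ± 0.09 in iTregs (edgeR adjusted p = 0.00495 and 0.0229).

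On the translation side, 2 of 7 cytosolic elongation factors rose in mutant nTregs. Eif5a was at 535, 383 and 397 CPM in mutant nTregs, against 290, 282 and 276 CPM in WT nTregs (log2 fold change 0.63 ± 0.11, edgeR adjusted p = 0.00115), and again mutant library 1 was the highest. In mutant iTregs Eef1b2 rose and Eef2 fell. Of 10 mitochondrial translation factors, Mtrf1, Gfm1, Tsfm and Tufm rose in mutant nTregs and none fell, whereas the mitochondrial synthetases had 1 member higher and 4 lower there. Mtrf1, a release factor homolog, was at 5.69, 4.08 and 3.83 CPM in mutant nTregs, against 2.21, 2.46 and 2.82 CPM in WT nTregs (0.86 ± 0.18, edgeR adjusted p = 0.00343). Without mutant nTreg library 1, 2 of these 10 passed, and 1 of the 3 scaffold genes.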

How the data were processed

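The deposited files hold counts per gene, 1 file per library, and went into the fit as they are. Per the file headers, reads were counted by the authors with featureCounts 1.5.2 on Ensembl release 87 of GRCm38, by strand; a read aligning to several places was counted at each. STAR 2.5.2b and mm10 are named in the submitters' processing notes. Read trimming is not given in the sources used here.

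Genes kept by filterByExpr (17977) were tested with edgeR 4.0.16 (R 4.3.3): TMM scaling, a mean per group with 8 residual degrees of freedom, and the two-sided quasi-likelihood F-test, with Benjamini-Hochberg adjustment over all tested genes and a threshold of 0.05. The SE was taken from that test's F statistic. The fit was also run on counts simulated from its own means and spreads, which cannot check how it handles a mixed or outlying library. Chi-square per degree of freedom between libraries of 1 group was 4.48 to 51.47, so none was a copy. Totals of 28707579 to 39886130 counts set the precision of genes with few counts. The members and lists were chosen with earlier results of these data known. Named in full were Gclc, Foxp3, up to 4 cytosolic and 4 mitochondrial members per comparison with the smallest adjusted p, members against a list's majority, and up to 4 genes that passed in each other list. The alternatives tried were DESeq2 1.42.0, RLE factors, unscaled library sizes, other filters (none, or 1 CPM in 3 libraries), a fit on only the libraries compared, a replicate block, and leaving out each library. For mutant iTregs against mutant nTregs they were chosen after seeing the data. Some items are not reported here.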

Additional observations from a re-analysis of the deposited data

Results flagged for a closer look

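Several mutant effects differed between nTregs and iTregs by the test of the difference itself (nTreg effect minus iTreg effect, edgeR quasi-likelihood test). Among the synthetases these were Aars at 0.82, Cars at 0.65, Vars at 0.59, Wars at 0.58, Sars at 0.57, Sars2 at 1.04, Vars2 at 0.46, Ears2 at -0.51 and Mars2 at -0.54. Among the other genes of tRNA charging and synthesis they were Aarsd1 at 0.69, Thg1l at 0.45, Gtf3c5 at 0.57, Gtf3c6 at -0.31 and Bdp1 at -0.44. Of the elongation factors Eif5a differed by 0.66 and Eef2 by 0.48. Of the genes of the amino acid response Asns differed by 2.53, Trib3 by 1.41 and Gcn1 by 0.45. Gclc, the mutated gene, differed by 0.65, from effects of -0.81 in nTregs and -1.46 in iTregs. The groups of 3 libraries were too small for a test of single outlying libraries.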

How the results depend on the processing

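The labels do not say whether libraries with the same replicate number share an animal, and nTregs and iTregs of each genotype carry the same numbers. Deviations from the group means had correlations of -0.06 to 0.05 between same-numbered libraries, which cannot settle this. The main fit treats the libraries as unpaired. With the replicate number as a block, 12 cytosolic members were higher in mutant nTregs, and Hars2 did not pass there (edgeR adjusted p = 0.0553). In mutant iTregs the block gave 1 cytosolic member higher and 0 lower and 1 mitochondrial member higher, and for the difference 1 mitochondrial member higher and 1 lower.

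The cytosolic count in nTregs was 10 to 18 and the mitochondrial count higher 1 to 2 (2 without mutant nTreg library 2) with single libraries left out, while 0 cytosolic members were lower in any of these fits. With library size alone 5, and with the filter of 1 CPM 3, mitochondrial members were higher in nTregs. In iTregs the cytosolic count higher was 0 with library size alone, 1 with the 1 CPM filter and 6 with the compared libraries alone, and ranged over 0 to 6 with libraries left out (6 without mutant nTreg library 1), each of the 12 moving it by over 1.5 times. The cytosolic count lower, 1 in the main fit, was 3 with library size alone, 0 without a filter and 2 with the compared libraries alone. With libraries left out it ranged over 0 to 3 (0 without WT nTreg library 2 or library 1 or 2 of either iTreg group, 2 without WT iTreg library 3, 3 without mutant nTreg library 1). The mitochondrial count higher was 1 with library size alone and without any of the 6 iTreg libraries, and ranged over 1 to 3. The count lower was 6 with library size alone, 5 with the 1 CPM filter and 5 with the compared libraries alone, and ranged over 1 to 5 (1 without mutant iTreg library 1 or 2 or WT iTreg library 1, 5 without mutant nTreg library 1). For the difference the cytosolic count was 12 with library size alone, 8 with no filter, 8 with the 1 CPM filter and 9 with DESeq2, and ranged over 4 to 10 (10 and 8 without mutant nTreg library 1 and 2). The mitochondrial count higher was 1 with no filter and ranged over 1 to 3 (1 without mutant nTreg library 2 or library 1 or 2 of any of the other 3 groups). The count lower was 0 with library size alone, 1 with no filter, 1 with the 1 CPM filter and 4 with DESeq2, and ranged over 0 to 2, staying at 2 only without mutant nTreg library 4. In mutant iTregs against mutant nTregs library size alone gave 4 cytosolic members lower and 3 mitochondrial members higher. Library size alone put the median of all genes at 0.14 for the difference and at -0.20 for that comparison. Farsa in nTregs lay between -0.06 and 0.05 with libraries left out (-0.06 without mutant nTreg library 1 and -0.01 without WT iTreg library 1). Dars in WT iTregs against WT nTregs was at -0.02 with library size alone and between -0.01 (without WT nTreg library 3) and 0.06 with libraries left out. The cause of these changes was not tested, and the share of all genes that passed is given for the main fit only.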
